A study of Bos indicus with 72 samples.

Results

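ENSBTAG00000025258 and ENSBTAG00000002938, called gene A and gene B here, are 2 genes that were scarce in the uterus of Brahman heifers before puberty and many times more abundant after it. They were chosen by their RPKM in the 5 post and 5 pre uterus libraries described below, so their uterine levels and fold changes are given as a description, with no test. They are 2 of the 14437 genes listed for the uterus and of the 24616 listed for the other tissues. The files carry Ensembl identifiers without symbols, so neither gene is given a name, a product or a function.

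The 12 heifers, of a Bos indicus breed kept for beef, gave RNA from uterus, liver, pituitary, hypothalamus and the left and right ovary, and each tissue of each heifer was sequenced as 1 of 72 libraries. Each tissue had 6 libraries labelled post-puberty and 6 labelled pre-puberty, from different animals, with no treatment, age or stage of the cycle in the labels. Animal 2054 was labelled pre-puberty in hypothalamus, pituitary and ovaries but post-puberty in liver and uterus, and animal 2059 carried the opposite pair of labels. The liver and uterus libraries with these numbers were left out of the groups, which then held 5 post and 5 pre libraries, and they are described apart. Whether a number names the same animal in every tissue was not tested, so a number is used below as the name of a library.

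The uterus is lined by the endometrium, a glandular mucosa whose gene expression follows estradiol and progesterone from the ovaries. Puberty in a heifer is marked by the first ovulation, after which a corpus luteum secretes progesterone in each cycle. The whole organ or a piece of it holds epithelium, stroma, smooth muscle, vessels and leukocytes. In such bulk samples a change in the share of a cell type and a change in RNA per cell cannot be told apart. Marker genes of the tissues and cell types could not be looked up without symbols, so the labelled tissues were not checked against them.

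The uterus values had to be read before they could be compared, because they were deposited as log2(RPKM + 0.001) with the minus signs removed. RPKM is the number of reads of a gene scaled to its length and to the size of the library. A deposited value of 1 can therefore stand for about 2 RPKM or for about 0.5 RPKM, and levels below 1 RPKM are the ones affected. Each value was turned back into reads under both signs, using the gene length and the library total, and the sign that gave a whole number of reads was taken. A reading counted as whole when it lay within 0.003 reads plus the rounding of the deposited value, at most 0.0118 reads for the readings taken. All 24 uterus values of the 2 genes had exactly 1 such reading. The reading taken lay at most 0.00653 reads from a whole number, and the other reading at least 0.0134 reads away. With the total of another library in place of their own, 0 of the 24 values came out whole under either sign by that rule, and 1 lay within a fixed 0.01 reads.

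**Figure D1:**
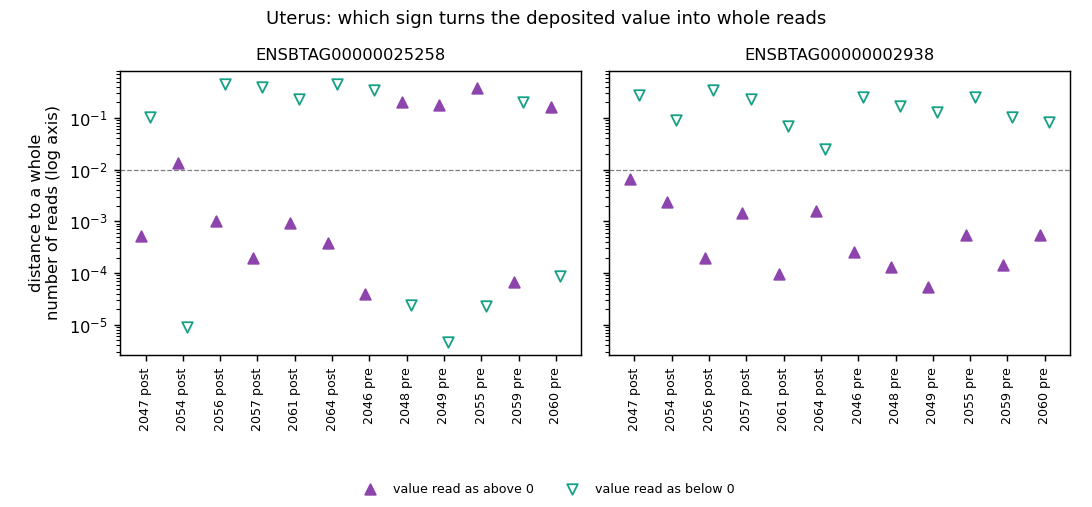
Distance of each deposited uterus value to a whole number of reads (log axis), read as above 0 (filled triangles) and as below 0 (open triangles), for every library of gene A on the left and of gene B on the right. In each library 1 of the 2 readings lies under the dashed line at 0.01 reads and the other above it, and for gene A it is the reading below 0 in 5 libraries.

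For gene A, 4 of the 5 pre values were negative logarithms. The deposited values 1.12312, 0.52342, 0.99231 and 0.7009 in libraries 2048, 2049, 2055 and 2060 gave 17, 27, 17 and 23 reads when read as below 0, which is 0.458, 0.695, 0.502 and 0.614 RPKM. The remaining pre value, 0.23534 in library 2046, was read as above 0 and gave 49 reads or 1.18 RPKM. All 5 post values were read as above 0. For gene B all 12 values were read as above 0, including the smallest, 0.0291 in pre library 2048, which gave 80 reads.

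Gene A was present at 36.3, 24.9, 15.3, 10.7 and 8.89 RPKM in post uterus libraries 2047, 2056, 2061, 2057 and 2064, from 1512, 985, 530, 393 and 363 reads. In pre uterus libraries 2046, 2049, 2060, 2055 and 2048 it was at 1.18, 0.695, 0.614, 0.502 and 0.458 RPKM, from 49, 27, 23, 17 and 17 reads. The groups did not overlap, and the lowest post value was 7.56 times the highest pre value. The mean was 19.2 ± 11.4 RPKM in post and 0.689 ± 0.288 RPKM in pre uterus (SD, n = 5 each), a ratio of 27.9. On the log2(RPKM + 0.5) scale the difference was 3.89, which understates the change of a gene this low in 1 group.

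Gene B was present at 23.3, 23.1, 18.9, 16.01 and 10.6 RPKM in post uterus libraries 2061, 2047, 2056, 2057 and 2064, from 1712, 2029, 1578, 1242 and 920 reads. In pre uterus libraries 2055, 2060, 2049, 2046 and 2048 it was at 3.21, 2.64, 2.06, 2.01 and 1.02 RPKM, from 230, 209, 169, 177 and 80 reads. These groups did not overlap either, and the lowest post value was 3.32 times the highest pre value. The mean was 18.4 ± 5.29 RPKM in post and 2.19 ± 0.816 RPKM in pre uterus (SD, n = 5 each), a ratio of 8.41 and a log2 difference of 2.82.

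**Figure D2:**
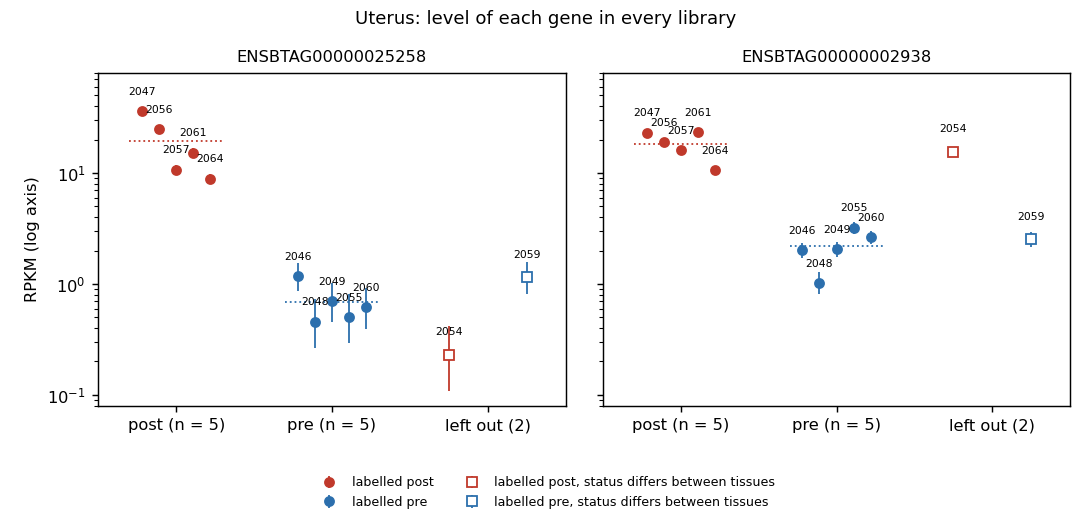
Level in RPKM (log axis) of gene A on the left and gene B on the right in every uterus library, with the exact 95% Poisson interval of the read count as a bar and the group mean as a dotted line. Gene A runs from 8.89 to 36.3 RPKM in post and from 0.458 to 1.18 RPKM in pre libraries, and the open squares are the libraries numbered 2054 and 2059.

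Against all 13106 uterus genes that reached 0.5 RPKM in 5 or more libraries, both genes stood in the upper part of the range of levels in post uterus and at its low end in pre uterus. The mean level of gene A stood above those of 70.9% of genes in post uterus and of 2.69% in pre uterus. For gene B these shares were 69.7% in post and 15.1% in pre uterus. Genes that did not reach 0.5 RPKM in 5 libraries were left out, so the low shares in pre uterus depend on that floor. The shares, like the differences that follow, rest on the values that chose the genes. The log2 difference of gene A was exceeded by 17 genes and that of gene B by 41, while the median over all genes was -0.03. Groups that did not overlap, with post higher, were found for 507 of the 13106 genes, or 3.87%, and both genes are among them by the way they were chosen.

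File numbers split the uterus libraries into 2 sets with both statuses in each. The ratio of means for gene A was 26.9 in the set with 3 post and 3 pre libraries and 28.8 in the set with 2 and 2. For gene B the ratios were 7.25 and 9.98. Since the groups do not overlap, post is higher in any such split.

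The 2 genes varied differently among libraries of the same status. The SD of gene A on the log2(RPKM + 0.5) scale was 0.82 among post and 0.32 among pre libraries, and that of gene B was 0.45 among post and 0.48 among pre libraries. The median SD over all uterus genes was 0.33 among post and 0.33 among pre libraries. The spread of gene A between post libraries, from 8.89 to 36.3 RPKM, was wider than counting error, since the exact 95% Poisson interval of its lowest post value ended at 9.85 RPKM and that of its highest began at 34.5 RPKM. Counting intervals cover counting error only.

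Per length, gene A was close to gene B in post uterus and below it in pre uterus. The ratio of the RPKM of gene A to that of gene B had a median of 0.834 in post libraries, with a range of 0.655 to 1.58, and of 0.338 in pre libraries, with a range of 0.156 to 0.585. These ranges did not overlap. The ratio rests on the same values that chose the genes and was not tested.

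The libraries numbered 2054 and 2059 took no part in the group means, and they placed the 2 genes differently. Library 2059, labelled pre in the uterus, had 1.14 RPKM of gene A from 37 reads and 2.52 RPKM of gene B from 172 reads, both inside the ranges of the 5 pre libraries. Library 2054, labelled post in the uterus, had 15.5 RPKM of gene B from 1437 reads, inside the range of the 5 post libraries. In that same library gene A gave 10 reads, or 0.228 RPKM, the lowest of all 12 uterus libraries. The exact 95% Poisson interval of these 10 reads ran from 0.109 to 0.419 RPKM. It overlapped with the interval of the lowest pre library, 2048, which ran from 0.267 to 0.733 RPKM. Gene A was therefore low in a uterus library labelled post in which gene B was high, and its ratio to gene B was 0.0147 there.

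This reading of gene A in library 2054 turns on the sign of 1 value. The deposited value 2.12847 gave 10 reads when read as below 0, and 192.0 reads when read as above 0. The second reading lay 0.0134 reads from a whole number, where rounding of the deposited value allows 0.000665 reads and the rule allows 0.00384 reads, so it was not taken. Read as deposited, it would stand for 4.37 RPKM, between the pre and the post libraries. Neither reading puts gene A in the range of the other post libraries.

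Most of the 507 genes that were higher in all 5 post libraries than in all 5 pre libraries followed gene B, not gene A, in library 2054. In that library 417 of them were at or above the lowest post value, 54 lay between the groups and 36, or 7.10%, were at or below the highest pre value. Gene A was among 4 of the 507 genes that lay below the lowest pre value. In library 2059, labelled pre, 448 of the 507 genes, or 88.4%, were at or below the highest pre value and 27 were at or above the lowest post value.

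**Figure D3:**
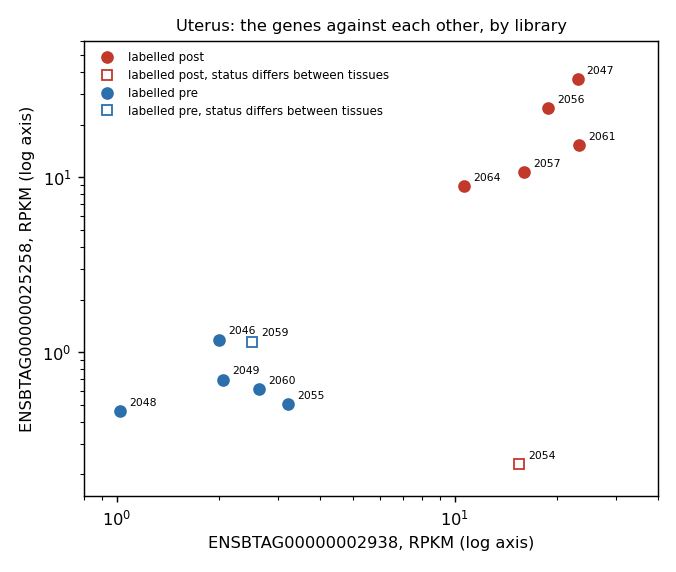
Level of gene A against that of gene B, both in RPKM on log axes, in the 12 uterus libraries. The 5 post libraries lie together at the upper right and the 5 pre libraries at the lower left, with library 2059 among the pre libraries and library 2054 alone at the lower right, at 15.5 RPKM of gene B and 0.228 RPKM of gene A.

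Likeness to other genes was measured as Pearson's r of log2(RPKM + 0.5) over the 12 uterus libraries, which share the division by status, and it is given as a description over 13105 other genes. Gene B was most like ENSBTAG00000009942, with r of 0.969, and 67 genes reached 0.9 or more while 34 were at -0.9 or less. ENSBTAG00000009942 averaged 9.64 ± 1.55 RPKM in post and 4.92 ± 0.601 RPKM in pre uterus (SD, n = 5 each), and had 9.962 RPKM in library 2054 and 5.38 RPKM in library 2059. No gene reached 0.9 with gene A, and 3 genes were at -0.9 or less. Its nearest gene was ENSBTAG00000011731, with r of 0.899, at 1.41 ± 0.642 RPKM in post and 0.0579 ± 0.0679 RPKM in pre uterus (SD, n = 5 each). It had 0.444 RPKM in library 2054 and 0.0464 RPKM in library 2059. ENSBTAG00000011731 thus reached 0.5 RPKM, the level needed to be included, in the 5 post libraries alone. Its pre values lay below the 0.5 added before the logarithm. Genes A and B had r of 0.786 with each other, which made gene B the 38th gene in likeness to gene A and gene A the 472nd in likeness to gene B.

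The other tissues were not used to choose the genes, so there the post and pre libraries could be tested. Neither gene passed an adjusted p of 0.05 in liver, pituitary or hypothalamus, and in the ovaries neither passed the filter on low counts that comes before the test. Levels are in RPKM from the authors for uterus and liver and were computed from read counts, with the same gene lengths and the reads in genes as the total, for the rest. The tables were scaled separately, so levels are set side by side between tissues without a test. Reads in genes were 70.5 to 79.4% of the totals behind the RPKM in uterus and 87.9 to 91.1% in liver. They were 31.6 to 37.7% of all reads in pituitary and 30.7 to 36.0% in hypothalamus. In the ovaries they were only 0.352 to 0.681% in left and 0.603 to 1.10% in right libraries. RPKM of these tissues are therefore on another footing than those of uterus and liver, most of all in the ovaries.

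In the liver both genes were readily measured at either status. Gene A had 11.1, 9.41, 7.80, 7.77 and 6.36 RPKM in post liver libraries and 18.2, 9.91, 9.75, 8.04 and 6.12 RPKM in pre liver libraries. The groups overlapped, with the highest and the lowest value both in pre liver. The means were 8.49 ± 1.81 RPKM in post and 10.4 ± 4.61 RPKM in pre liver (SD, n = 5 each), and the log2 difference was -0.21 ± 0.25 (SE), with an adjusted p of 0.9998 in limma and an unadjusted p of 0.415.

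Gene B had 10.4, 10.1, 8.06, 6.37 and 5.34 RPKM in post liver libraries and 17.9, 12.5, 8.70, 7.45 and 5.11 RPKM in pre liver libraries. These groups overlapped too, again with both extremes in pre liver. The means were 8.05 ± 2.23 RPKM in post and 10.3 ± 5.02 RPKM in pre liver (SD, n = 5 each), with a log2 difference of -0.26 ± 0.30 (SE), an adjusted p of 0.9998 in limma and an unadjusted p of 0.402. No liver gene passed the threshold, 0 of 11697 or 0%, with 200 at an unadjusted p under 0.05 in limma, and edgeR on recovered reads called 0 with 287. Library 2054, labelled post in the liver, had 7.42 RPKM of gene A and 10.3 RPKM of gene B. Library 2059, labelled pre, had 15.01 RPKM of gene A and 11.4 RPKM of gene B. All 4 values lay inside the range of the other liver libraries, and the headers of the liver files give 2054 as pre and 2059 as post.

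In the pituitary, gene A varied widely within both groups. It had 175, 42, 33, 21, 5 and 4 reads in post pituitary libraries 2047, 2056, 2057, 2064, 2061 and 2059, and 139, 50, 48, 46, 23 and 15 reads in pre pituitary libraries 2054, 2055, 2049, 2046, 2048 and 2060. The highest post and the highest pre library thus stood above the rest of their groups, at 11.4 RPKM in post and 12.5 RPKM in pre pituitary, and the lowest was at 0.443 RPKM in post and 1.58 RPKM in pre pituitary. The means were 3.72 ± 4.07 RPKM in post and 5.40 ± 3.98 RPKM in pre pituitary (SD, n = 6 each), a log2 difference of -0.55 ± 0.65 (SE) with an adjusted p of 0.99997 in edgeR and an unadjusted p of 0.408. Without libraries 2054 and 2059 the log2 difference was 0.06, and without library 2047 it was -1.30, with an unadjusted p of 0.0496 and an adjusted p of 0.9999.

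The spread of gene A in the pituitary exceeded that of nearly all genes of like abundance. Its SD of log2(CPM + 0.5), with CPM a count scaled to library size, was 1.30 over all 12 pituitary libraries, against a median of 0.40 over 3763 genes whose mean read count was within 2 times its own, and 99.3% of these genes had a lower SD. In the liver the same share was 79.3%, and in the hypothalamus it was 80.3%. Gene B had a share of 65.9% in the pituitary, 86.2% in the liver and 53.9% in the hypothalamus.

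Gene B lay between 0.743 and 2.22 RPKM in post pituitary and between 0.972 and 2.44 RPKM in pre pituitary, with medians of 1.38 RPKM in post and 1.48 RPKM in pre. Its reads ran from 12 to 72 in post and from 20 to 55 in pre libraries, so the groups overlapped almost completely. The log2 difference was -0.25 ± 0.32 (SE), with an adjusted p of 0.99997 in edgeR and an unadjusted p of 0.450. No pituitary gene passed the threshold in edgeR, 0 of 13335 or 0%, with 203 at an unadjusted p under 0.05, and DESeq2 called 0.

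In the hypothalamus both genes were low. Gene A had 0.621 to 2.46 RPKM in post and 0.293 to 2.78 RPKM in pre hypothalamus, from 8 to 32 reads in post and 4 to 36 reads in pre libraries, with medians of 1.23 RPKM in post and 0.692 RPKM in pre. The groups overlapped, and the highest value of all stood in pre library 2049. The log2 difference was 0.54 ± 0.49 (SE), with an adjusted p of 0.974 in edgeR and an unadjusted p of 0.286. Without pre library 2049 the log2 difference was 1.125, with an unadjusted p of 0.0161 and an adjusted p of 0.9999.

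Gene B had 0.762 to 1.88 RPKM in post and 0.803 to 1.65 RPKM in pre hypothalamus, with medians of 1.60 RPKM in post and 1.1997 RPKM in pre, and the groups again overlapped. Its log2 difference was 0.25 ± 0.26 (SE), with an adjusted p of 0.974 in edgeR and an unadjusted p of 0.365. No hypothalamus gene passed the threshold in edgeR, 0 of 13713 or 0%, with 466 at an unadjusted p under 0.05, and DESeq2 called 0.

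In the ovaries the files hold few reads in genes, between 185848 and 272306 in left and between 184808 and 334454 in right libraries, against 4427245 to 10406817 in pituitary and hypothalamus. The ovary libraries themselves were not small, with 29962368 to 54251502 reads in all in left and 30439894 to 44132322 in right libraries. The cause of the low share in genes was not tested. A single read of gene A was worth 1.91 to 3.45 RPKM there, and a single read of gene B 0.902 to 1.63 RPKM. Neither gene passed the filter on low counts there. Without that filter edgeR gave adjusted p of 0.711 in left and 0.867 in right ovaries for gene A. For gene B they were 0.922 and 0.806. In the left ovary the unadjusted p of gene A in edgeR was 0.0348, at a log2 difference of -1.34, with pre higher. Library 2054 held 27 of the 30 reads of gene A in pre left ovaries. With the filter, edgeR called 0 of 1922 genes (0%) in the left ovary, with 101 at an unadjusted p under 0.05 and 1 called by DESeq2, and 50 of 2073 genes (2.41%) in the right ovary, with 380 at an unadjusted p under 0.05 and 97 called by DESeq2.

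Gene A had 3, 2, 2, 1, 1 and 1 reads in post left ovaries and 27, 2, 1, 0, 0 and 0 reads in pre left ovaries. In right ovaries it had 5, 4, 2, 2, 2 and 2 reads in post libraries and 20, 4, 1, 1, 1 and 0 reads in pre libraries. The 27 and the 20 reads both belonged to library number 2054, labelled pre in the ovaries, while no other ovary library exceeded 5 reads. They corresponded to 78.7 RPKM in the left and 49.1 RPKM in the right ovary, with exact 95% Poisson intervals of 51.9 to 115 RPKM and 30.0 to 75.8 RPKM. The total behind these RPKM is the reads in genes, 0.681% of all reads in the left and 0.647% in the right library. They are therefore not set against levels in uterus or liver. Library 2054 held 67.5% of all reads of gene A over the 12 left ovaries and 45.5% over the 12 right ovaries. Library number 2054 was also the highest of 12 for gene A in the pituitary, while it was the lowest of 12 in the uterus. It was the 10th in the liver, from 289 reads, and the 11th in the hypothalamus, from 7 reads. Whether these libraries come from 1 animal was not tested.

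The mean of gene A was 5.04 RPKM in post and 14.5 RPKM in pre left ovaries, and 1.61 RPKM in pre left ovaries without library 2054. In right ovaries it was 6.63 RPKM in post and 11.1 RPKM in pre libraries, and 3.52 RPKM in pre libraries without 2054. The order of the means thus turned on that library, while the medians, given below, were higher in post ovaries with it included. Gene B had 0 to 2 reads in each left ovary and 0 to 3 in each right ovary, and 0 reads in 4 left and 5 right libraries. A count of 0 allows up to 3 reads. In these libraries that is 4.08 to 4.74 RPKM in left and 2.71 to 3.7005 RPKM in right ovaries. These limits take the reads in genes as the total, so they are not set against levels in uterus. Whether a level such as that of gene B in pre uterus can lie behind a count of 0 was not tested.

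**Figure D4:**
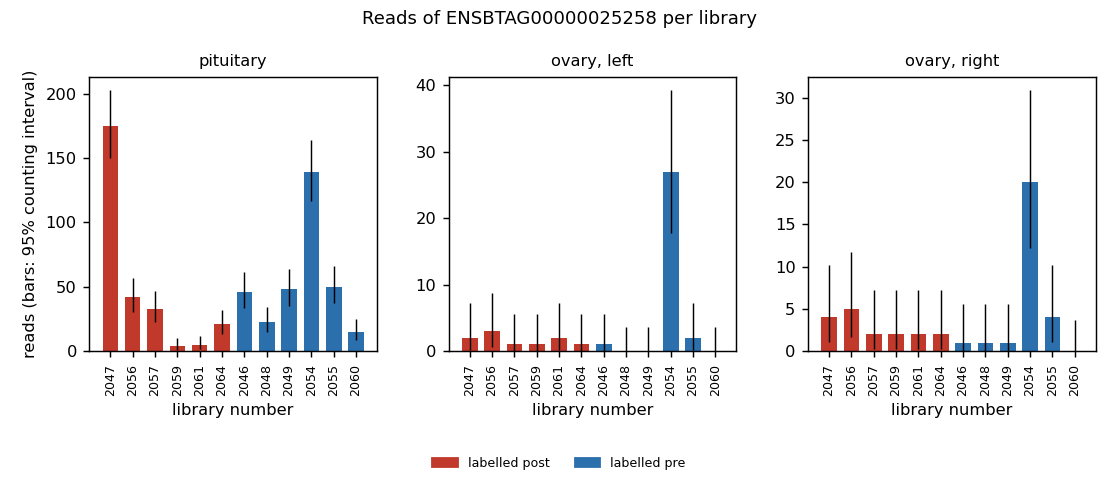
Reads of gene A in every pituitary, left ovary and right ovary library, with post libraries left of pre libraries and the exact 95% Poisson interval as a line. In the ovaries library 2054 has 27 and 20 reads and no other more than 5, and in the pituitary libraries 2047 and 2054 have 175 and 139 reads.

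By median level, gene A ran from post uterus at 15.3 RPKM, through pre liver at 9.75 and post liver at 7.80, pre pituitary at 4.39 and post pituitary at 2.91, to post hypothalamus at 1.23, pre hypothalamus at 0.692 and pre uterus at 0.614 RPKM. In these RPKM each of these neighbours overlapped with the next. This order rests on unlike totals, as does that of gene B. Post uterus, from 8.89 RPKM, lay above all hypothalamus libraries, which reached 2.78 RPKM, but overlapped with the liver and with pituitary libraries 2054 and 2047. With reads in genes as the total in both tissues, post uterus began at 17.7 CPM, against 19.6 and 17.9 CPM in these 2. Reads in genes were 35.7 and 32.1% of all their reads, so RPKM on full totals would be lower there, and the overlap depends on the total used. Pre uterus lay below every liver library and, in these RPKM, inside the range of the hypothalamus. Its place inside that range, and the overlap of post liver with pre pituitary, depend on the total used in the same way.

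Gene B ran from post uterus at 18.9 RPKM, through pre liver at 8.70 and post liver at 8.06, to pre uterus at 2.06, with post and pre hypothalamus at 1.60 and 1.1997 and post and pre pituitary at 1.38 and 1.48 RPKM. Post uterus overlapped with pre liver, which reached 17.9 RPKM, but lay above all post liver libraries, of which the highest had 10.4 RPKM. Every liver library stood above every pre uterus, pituitary and hypothalamus library, and in these RPKM these 3 overlapped with each other. With reads in genes as the total, pre uterus began at 4.45 CPM, while pituitary reached 8.11 and hypothalamus 6.24 CPM. RPKM on full totals would be lower in pituitary and hypothalamus, so their overlap with pre uterus depends on the total used. In the ovaries the medians of gene A were 4.90 RPKM in post and 1.49 RPKM in pre left ovaries and 5.73 RPKM in post and 2.78 RPKM in pre right ovaries, from so few reads that no place in these orders is given.

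**Figure D5:**
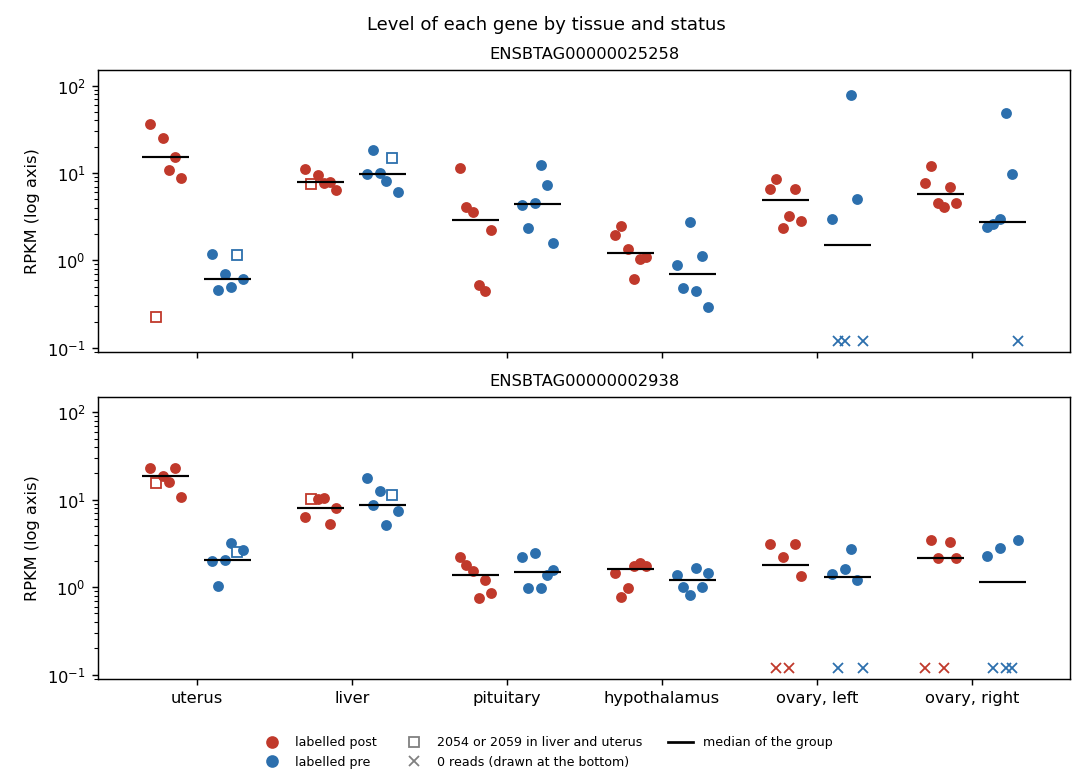
Level in RPKM (log axis) of gene A above and gene B below in all 72 libraries by tissue, with post libraries left of pre libraries, group medians as lines, and counts of 0 drawn at the bottom as crosses. In the uterus all 5 post circles of each gene lie above all 5 pre circles, while post and pre libraries overlap in the other tissues. RPKM of pituitary, hypothalamus and ovaries take the reads in genes as the total, so heights are not comparable with uterus and liver, least of all in the ovaries.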

How the data were processed

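TruSeq libraries were sequenced as paired ends, per the labels' protocols. The submitters' processing notes give the genome build as UMD3.1, and no source used here gives the aligner, the counting tool, its strand setting or the gene annotation. The files of both ovaries, pituitary and hypothalamus hold raw read counts per gene as deposited. The rows of reads in no gene (medians of 89.7% of reads in left ovary, 89.8% in right ovary, 56.4% in pituitary and 58.6% in hypothalamus) and the other rows that name no gene were left out. For liver the deposited values were RPKM, and for uterus the deposited values were log2(RPKM + 0.001) without sign, per the values.

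Library totals and gene lengths that turn RPKM into whole reads were recovered from the liver for 17852 of 17853 genes with a value above 0, every value of these lying within 0.000284 reads of a whole number, giving lengths of 1568 bases for gene A and 3316 bases for gene B. In the uterus 16.2% of 173244 values were read as below 0, and 1.01% could not be decided and were read as deposited. The recovery and the tests were checked on simulated data.

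Groups follow the labels. Counts were tested with edgeR 4.0.16 (quasi-likelihood, TMM, filterByExpr, robust), and liver with limma 3.58.1 (trend, robust) on log2(RPKM + 0.5) for genes that reached 0.5 RPKM in 5 or more libraries. Tests were two-sided, p-values were adjusted by Benjamini-Hochberg over all genes tested, and the threshold was 0.05. Alternatives used DESeq2 1.42.0, RLE factors, other pseudocounts and filters, the library set, the libraries in doubt, and leaving out each animal. R was 4.3.3 and Python 3.11.15. Depth was 18805191 to 25905306 gene reads in liver, 4837274 to 10406817 in hypothalamus and 4427245 to 9759919 in pituitary. With 5 or 6 animals per group, p-values weigh the difference between groups against the spread between animals.

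Both genes, the gene lists and the tests were chosen with earlier results of these data known. Besides both members, the rule named for each the 1 gene with the highest r in the uterus. The RefSeq table at hand has 34142 genes and 0 Ensembl identifiers, so planned lists of cell type markers and uterine genes could not be used, and no symbol, coordinate or sequence is given. Reads may be shared with overlapping or antisense genes or close copies.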

Additional observations from a re-analysis of the deposited data

Results flagged for a closer look

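Within each group of 5 or 6 libraries, the gap of the highest or lowest value to its neighbour was set against the range of the group. Of 24 groups examined, 4 held a value that stood far from the others, all of gene A (ENSBTAG00000025258). The cutoff is set to flag 1 in 20 groups of independent, normally spread values. RPKM from few reads need not be so, and the number that chance gives here was not tested. Library 2047 had 11.4 RPKM of gene A in post pituitary, with 4.06 RPKM in the nearest library. Library 2049 had 2.78 RPKM in pre hypothalamus, with 1.12 RPKM in the nearest. Library 2054 had 78.7 RPKM in pre left ovary, with 5.07 RPKM in the nearest, and 49.1 RPKM in pre right ovary, with 9.62 RPKM in the nearest. The same number stood first for gene A in both ovaries and in the pituitary.

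The uterus library numbered 2054, labelled post and outside the comparison, held 15.5 RPKM of gene B (ENSBTAG00000002938), above the highest pre uterus value of 3.21 RPKM, while gene A was at 0.228 RPKM in it.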

How the results depend on the processing

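Over 194 alternatives to the 12 differences between post and pre libraries, 186 kept the value within 1 SD or on its side of the threshold, and no adjusted p fell below 0.711. In the ovaries some of these 186 changed sign. Gene A in the right ovary went from 0.52, a difference in mean log2(CPM + 1), to -0.058 without pre library 2060. The alternative without the filter, -0.29, is a log2 difference from edgeR and so another measure. Gene B in the left ovary went from 0.28 to -0.081 at the lowest with 1 library left out. On the log2(RPKM + 0.5) scale the uterus difference of gene A, 3.89, became 4.69 with a pseudocount of 0.001, 3.01 with all values as deposited, 3.05 with libraries 2054 and 2059 added as labelled and 4.60 with TMM scaling of reads. That of gene B, 2.82, became 1.95 when these libraries were added with the status of the other tissues. Leaving out each animal gave 3.62 to 4.12 for gene A and 2.63 to 2.999 for gene B in the uterus. None of these turned the direction.

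For gene A in the pituitary the difference of -0.55 was 0.062 without libraries 2054 and 2059, and -1.30 to -0.14 with each animal left out. In the liver, leaving out each animal gave -0.37 to 0.0052 for gene A, the highest without pre library 2048 (adjusted p 0.9999), and -0.47 to -0.04 for gene B. In the left ovary, the difference in mean log2(CPM + 1) of gene A was 0.92, and edgeR without a filter gave -1.34 (adjusted p 0.711), and in the right ovary these values were 0.52 and -0.29 (adjusted p 0.867). In each ovary these values are unlike measures, since edgeR fits scaled counts and does not average their logs, so they do not show the effect of the filter alone. The cause of the other changes was not tested.

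No paired analysis was possible because post and pre libraries come from different animals. DESeq2, RLE factors and the set term gave no value in the ovaries, where neither gene passes the filter. The small share of reads in genes limits the ovaries, where every library but 2054 holds 0 to 5 reads of either gene.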
